A study of Mus musculus with 2 samples.

Results

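The 10 genes described here encode chaperones of the endoplasmic reticulum (ER) and the cofactors that work with them. They are Hspa5, Hyou1, Dnajb11, Dnajc3, Sdf2l1, Hsp90b1, Calr, Canx, Manf and Creld2. They were chosen by name, with earlier results of these data known, and all 10 were found once among the 32285 genes of the files. Their mRNA was measured by scRNA-seq in splenic dendritic cells (DC) of WT mice (H2-Aa +/+) and of mice homozygous for the citation allele (H2-Aa cit/cit, called cit here), in which the gene of the MHC-II alpha chain is disrupted in every cell of the animal. Each genotype is 1 library of the pooled cells of 3 naive female mice, 4 months old. CD11c-enriched splenocytes were sorted as live CD45.2+ CD11c+ cells, so cells of other lineages that carry CD11c are among them. The mouse a cell came from is not given in the sources used here.

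Proteins that enter the ER fold there with the help of BiP (Hspa5), an ATP-driven chaperone of the HSP70 family, of the HSP90 family member GRP94 (Hsp90b1), and of the lectins calreticulin and calnexin, which hold proteins through their sugar chains. When unfolded proteins build up, the sensors IRE1, ATF6 and PERK start the unfolded protein response, in which XBP1 and ATF6 drive the transcription of chaperone genes. DC fold large amounts of membrane and secreted protein, MHC molecules among them, and in cDC1 the IRE1 and XBP1 branch is known to be active at rest.

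The promoters of these genes are known for the ER stress response element (ERSE), at which ATF6 or XBP1 binds next to the CCAAT-binding factor NF-Y. Promoter windows of 300 bases, from 250 before to 50 after the RefSeq start site (GRCm38.p6), were at hand for 8 of the 10 genes, all but Hyou1 and Manf. Both strands were searched for ERSE, spelled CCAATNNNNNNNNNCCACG, and for the shorter ERSE-II, spelled ATTGGNCCACG. The motifs share the CCACG box, and ATTGG is the CCAAT box read from the opposite strand, so that matches of both can overlap. ERSE was found in 6 of the 8 windows and in 39 of all 32851 windows (0.119%). ERSE-II was found in 1 of the 8, that of Dnajb11, and in 12 of all windows (0.0365%). Every match is given here with 15 bases on each side, in the direction of the gene, with the motif in capitals; where the capitals begin with CGTGG, the motif lies on the opposite strand. The first is that of Hspa5 on the plus strand, at chr2:34772010-34772058.
Hspa5: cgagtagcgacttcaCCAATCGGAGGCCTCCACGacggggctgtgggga
Dnajc3 (plus strand, chr14:118937812-118937860): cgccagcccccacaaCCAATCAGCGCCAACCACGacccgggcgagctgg
Creld2 (plus strand, chr15:88819505-88819553): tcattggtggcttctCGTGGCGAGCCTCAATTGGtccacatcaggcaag
Hsp90b1, far (minus strand, chr10:86705623-86705671): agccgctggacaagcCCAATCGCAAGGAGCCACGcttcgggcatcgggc
Hsp90b1, near (minus strand, chr10:86705518-86705566): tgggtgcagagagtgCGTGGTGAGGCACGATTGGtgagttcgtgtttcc
Calr (minus strand, chr8:84847060-84847108): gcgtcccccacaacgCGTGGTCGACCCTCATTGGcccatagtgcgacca
Canx (minus strand, chr11:50325785-50325833): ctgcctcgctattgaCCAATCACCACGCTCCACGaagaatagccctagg
Dnajb11, ERSE-II (plus strand, chr16:22857837-22857877): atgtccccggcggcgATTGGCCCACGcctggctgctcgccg

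The ERSE matches of the 6 genes began between 212 and 65 bases before the start site, and the ERSE-II match of Dnajb11 began 8 bases after it. Sdf2l1 had neither motif, although its window (minus strand, chr16:17132334-17132633) holds the CCAAT box 4 times and the CCACG box 3 times. It is shown whole because the gene had one of the highest ratios between the libraries, with both boxes in capitals on whichever strand they lie.
Sdf2l1: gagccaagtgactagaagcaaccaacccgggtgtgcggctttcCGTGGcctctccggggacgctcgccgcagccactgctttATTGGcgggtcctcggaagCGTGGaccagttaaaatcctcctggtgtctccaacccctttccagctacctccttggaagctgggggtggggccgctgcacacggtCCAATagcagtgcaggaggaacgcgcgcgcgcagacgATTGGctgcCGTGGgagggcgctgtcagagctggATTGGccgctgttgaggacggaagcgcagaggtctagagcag

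Each box alone is common, with CCAAT in 37.4% and CCACG in 32.8% of all windows, and all 8 windows held both. A match describes letters in a window and not the binding of a factor.

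**Figure D1:**
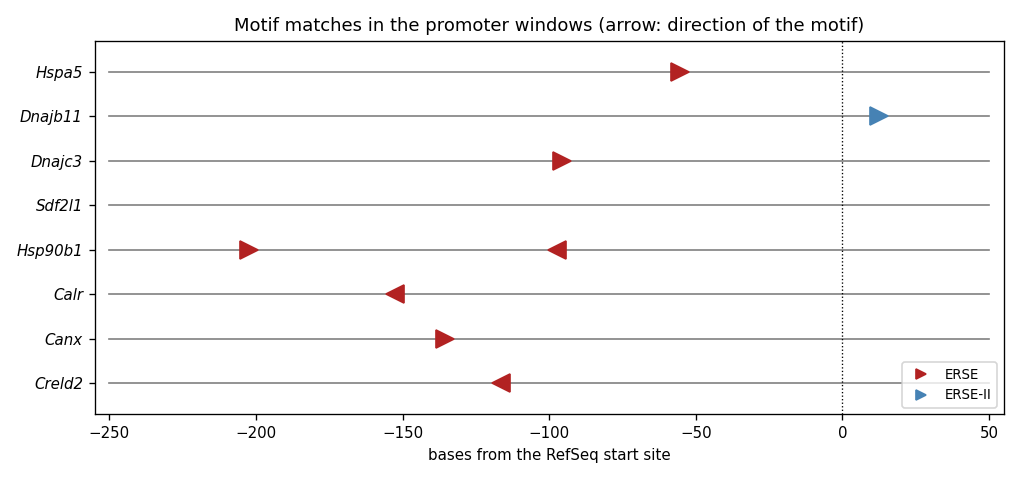
Motif matches in the 8 promoter windows, plotted by the distance of the middle of each match from the RefSeq start site in bases; arrows point in the direction of the motif, red for ERSE and blue for ERSE-II. The ERSE matches lie before the start site, Hsp90b1 has 2 in opposite directions, and Sdf2l1 has none.

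The libraries held 7814 WT and 11525 cit cells with 51020804 and 72652201 UMIs. A UMI marks 1 captured 3′ end of an mRNA molecule. Cells were assigned to classes by the number of class markers with a UMI: conventional DC of type 2 (cDC2, 3071 WT and 5938 cit cells), cDC1 (437 and 520), mature DC (1589 and 950), plasmacytoid DC (pDC, 85 and 91), cycling cells (372 and 707) and NK-like cells (34 and 30). None of the 10 genes is a marker. The 10 leading genes of the classes held between 2 of their own markers (Siglech and Klk1 in pDC) and 5 (cycling cells), and at most 1 marker of another class. Cells entered a class by these same markers, so their place among its leading genes is built in and does not check the class. H2-Aa went from 6691 CPM in WT to 76.5 CPM in cit cDC2, and from 6927 to 45.5 CPM in cDC1, where CPM is the number of UMIs per 1000000 UMIs of the class. The median cell had a larger share of ribosomal protein UMIs in cit (15.5%) than in WT (10.5%), and cells under 8% made up 39.4% of WT but 21.8% of cit cDC2. In all, 31 cell barcodes occurred in both libraries. With 1 library per genotype no difference can be tested: ratios of cit to WT carry 95% intervals for counting error alone, and a gene is called higher or lower past 1.5-fold if its mean over both libraries is at least 20 CPM.

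In cDC2, all 10 genes were higher in cit cells. Hyou1 (15.5 CPM) and Creld2 (11.2 CPM) were under 20 CPM in WT there and passed the minimum only through cit. The UMIs of the 10 genes together went from 1022 CPM in WT to 2914 CPM in cit (log2 ratio 1.51, interval 1.49 to 1.53). The median over the 6441 genes tested was −0.05. Of all genes tested in cDC2, 1.83% were higher and 2.22% lower past 1.5-fold. The difference was larger in cDC1, where the sum went from 2078 to 12803 CPM (log2 ratio 2.62, 2.59 to 2.65) and again all 10 genes were higher, beside 9.22% of all genes tested (7.91% were lower). The 10 genes thus made up 0.208% of all UMIs of WT cDC1 and 1.28% of those of cit cDC1. Cycling cells went from 1945 to 4346 CPM (1.16, 1.12 to 1.19), with 9 of 10 genes higher and a background of 2.01% higher and 2.18% lower.

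Mature DC, which carry the migration receptor CCR7, went from 808 to 1872 CPM (1.21, 1.17 to 1.25). Of the 9 genes tested there, 7 were higher, all but Calr and Canx, beside 5.27% of all genes (4.44% lower). Creld2, among the 7, was at 7.16 CPM in WT and passed the minimum only through cit. Hyou1 was left out by the minimum of 20 CPM. In pDC, the type I interferon producers, the sum was 2319 CPM in WT and 2655 CPM in cit (0.20, 0.11 to 0.28). Of the 10 genes, 2 were higher in pDC, Creld2 and Sdf2l1, with 6.62% of all genes higher and 6.72% lower. That count depended on the processing. It was 1 under several alternatives (a stricter gate, a minimum of 50 CPM, or without Scrublet doublets, for example) and 0 at 2-fold. It was 10 when cells were assigned by the highest marker z-score, beside 1.70% of all genes. That assignment left no cell without a class and enlarged pDC to 644 WT and 869 cit cells. Its count is therefore not one of the pDC gated here. NK-like cells had 1473 and 2346 CPM (0.67, 0.45 to 0.89) from 293 and 392 UMIs, and 6 of the 9 genes tested were higher. That class is too small to read, since 20.3% of all its genes were higher and 21.3% lower. None of the genes tested was lower past 1.5-fold in any class, and Hyou1 in NK-like cells, with 4 UMIs in WT and 2 in cit, was under the minimum.

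In WT, pDC had the highest level of the 10 genes together, followed by cDC1, cycling cells, NK-like cells, cDC2 and mature DC, with no overlap between the intervals of neighbors. In cit, cDC1 came first, then cycling cells and cDC2, and pDC after them. The intervals of pDC and NK-like cells overlapped in cit, and mature DC remained the lowest. Cells of cDC1 were 5.59% of the WT and 4.51% of the cit library, and held 17.2% and 31.7% of the UMIs of the 10 genes. These shares do not compare directly, because cDC1 were deeper than the median cell. Their median depth was 10749 UMIs in WT and 14531 in cit, beside 5492 and 5633 in the whole libraries. Of all UMIs, cDC1 held 5060656 of 51020804 in WT and 7472976 of 72652201 in cit.

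**Figure D2:**
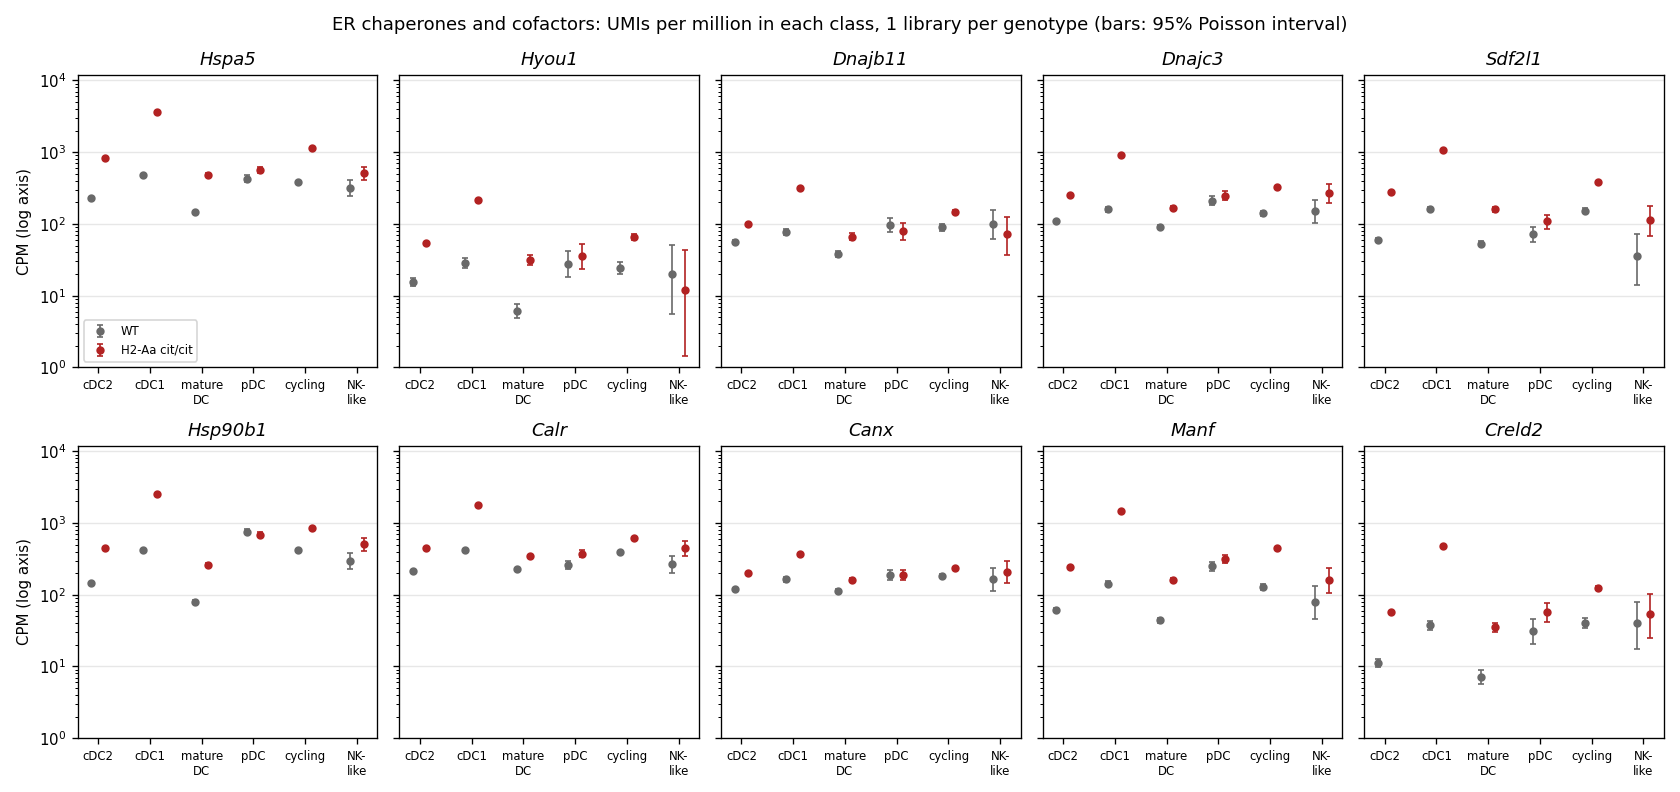
CPM of each of the 10 genes (log axis) in the 6 classes, in grey for WT and red for cit, with 95% Poisson intervals over the UMIs of 1 library each. The red point of cDC1 stands above all others in every panel, and the points of pDC lie close together.

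Hspa5 encodes BiP, which binds newly made proteins in the ER lumen and holds the stress sensors inactive. UMIs count 3′ ends and were not scaled to length, and by UMIs it was the most abundant of the 10 genes in cDC2 of both libraries, with 231 CPM in WT and 818 CPM in cit (log2 ratio 1.82, 1.78 to 1.87). In cDC1 it stood at 474 and 3681 CPM, a 7.77-fold ratio (log2 2.96, 2.90 to 3.02). It was 146 and 487 CPM in mature DC (1.74) and 381 and 1143 CPM in cycling cells (1.59). In pDC the levels were 429 and 561 CPM (0.39, 0.18 to 0.59), short of 1.5-fold. Its share of the UMIs of the 10 genes was 22.6% in WT and 28.1% in cit cDC2, and 22.8% and 28.7% in cDC1, so that it was further above the others in cit.

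Hyou1 encodes GRP170, a large relative of BiP that exchanges its nucleotide. It was the least abundant of the 10 in cDC1 and mature DC of both libraries. Its level was 15.5 CPM in WT and 53.4 CPM in cit cDC2 (1.78, 1.61 to 1.96), and 28.9 and 215 CPM in cDC1 (2.90, 2.65 to 3.15). Mature DC had 77 UMIs in WT and 179 in cit (6.13 and 31.5 CPM), a log2 ratio of 2.36 (1.97 to 2.77) that was not called because the mean was under 20 CPM. In pDC, 25 and 27 UMIs gave 0.37 with an interval from −0.47 to 1.21, which does not settle a direction.

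The J-domain proteins Dnajb11 (ERdj3) and Dnajc3 (p58IPK) bring clients to BiP and start its ATPase, and Sdf2l1 works in a complex with Dnajb11. Of these, Sdf2l1 had the highest ratio in cDC2, from 60.0 to 280.0 CPM (2.22, 2.14 to 2.31). In cDC1 it went from 161 to 1076 CPM (2.74). Its partner Dnajb11 went from 56.1 to 99.5 CPM in cDC2 (0.83, 0.73 to 0.93) and from 76.5 to 318 CPM in cDC1 (2.06, 1.90 to 2.22). The intervals of these partners did not overlap in either class. Dnajc3 was 109 and 252 CPM in cDC2 (1.21) and 159 and 904 CPM in cDC1 (2.51). In pDC, Dnajb11 had 86 UMIs in WT and 59 in cit (−0.28, −0.79 to 0.21), and Sdf2l1 had 64 and 81 (0.60, 0.11 to 1.09). Both intervals are wide, and only that of Sdf2l1 lies on one side of 0.

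Hsp90b1 encodes GRP94, which folds a narrow set of clients that includes toll-like receptors and integrins. By UMIs it was the most abundant of the 10 in pDC, with 754 CPM in WT and 690 CPM in cit (−0.13, −0.30 to 0.04), 32.5% of the UMIs of the 10 genes in WT pDC. In the other DC it was higher in cit, with 144 and 456 CPM in cDC2 (1.66, 1.61 to 1.72) and 419 and 2536 CPM in cDC1 (2.60). Mature DC had the lowest level, 78.2 CPM in WT and 261 CPM in cit (1.74, 1.62 to 1.86). In cycling cells it was 418 and 843 CPM (1.01).

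Calr and Canx, the lectin chaperones calreticulin and calnexin, also belong to the assembly of MHC-I. With Dnajb11, they had the 3 lowest ratios of the set in cDC2, cDC1, mature DC and cycling cells. Calr was 214 and 452 CPM in cDC2 (1.08, 1.03 to 1.13) and 416 and 1759 CPM in cDC1 (2.08). Canx was 120 and 200 CPM in cDC2 (0.74, 0.68 to 0.81) and 163 and 370 CPM in cDC1 (1.18, 1.07 to 1.29), the lowest of the 10 in both classes. In mature DC neither passed 1.5-fold, with 0.57 (0.48 to 0.65) for Calr and 0.52 (0.40 to 0.64) for Canx. Canx was also the gene that did not pass in cycling cells (0.37, 0.25 to 0.49). It was level in pDC, at 190 and 189 CPM, with an interval from −0.34 to 0.33. The share of Canx among the UMIs of the 10 genes was 11.7% in WT and 6.9% in cit cDC2.

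Manf and Creld2 encode small proteins of the ER that are also secreted under stress; Manf binds BiP. They had the largest ratios in cDC1: Manf went from 143 to 1463 CPM (3.36, 3.25 to 3.47) and Creld2 from 37.3 to 481 CPM (3.69, 3.47 to 3.90). Creld2 was also the highest of the 10 in cDC2, from 11.2 to 57.7 CPM (2.36, 2.16 to 2.57), where Manf went from 61.5 to 245 CPM, a 3.99-fold ratio. Among the 6441 genes tested in cDC2, Creld2 ranked 3rd, Sdf2l1 4th, Manf 6th, Hspa5 9th, Hyou1 10th and Hsp90b1 12th by ratio. Creld2 and Hyou1 were under 20 CPM in WT cDC2, so that they were tested there only through their level in cit. In mature DC Creld2 rested on 90 and 201 UMIs (2.30, 1.94 to 2.68) and passed the minimum only through its level in cit. In pDC it had 28 and 43 UMIs (0.88, 0.16 to 1.62), and Manf had 222 and 232 (0.32, 0.05 to 0.59).

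**Figure D3:**
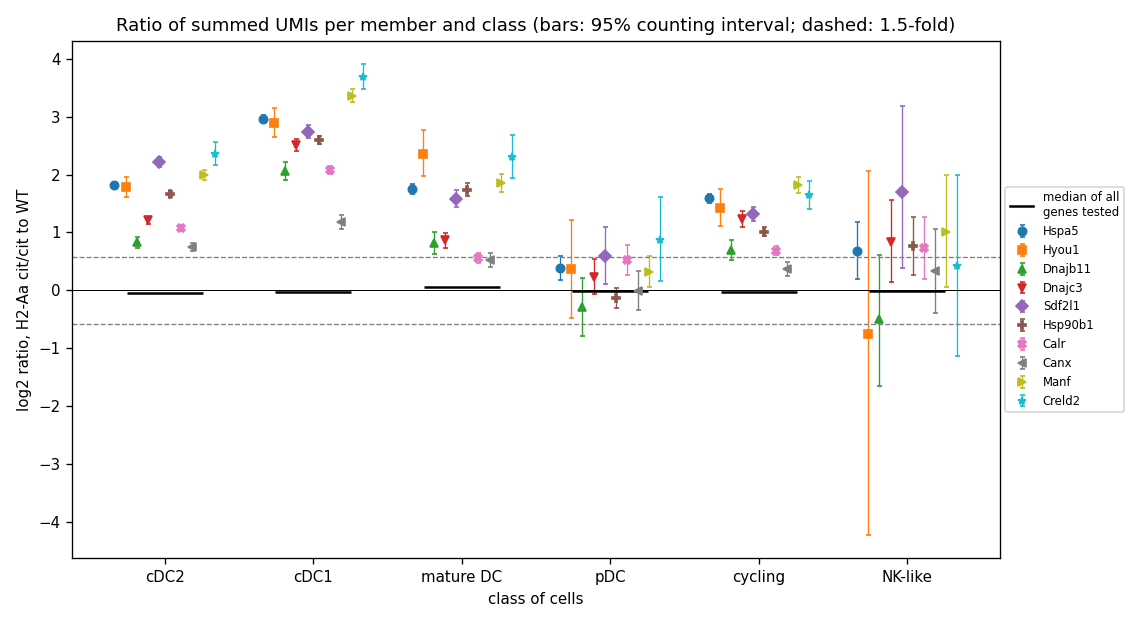
Log2 ratio of cit to WT for each gene in each class, with 95% counting intervals; the black bars are the medians of all genes tested and the dashed lines mark 1.5-fold. All 10 genes lie above the upper dashed line in cDC2 and cDC1, between 1.18 and 3.69 in cDC1, while every interval in pDC and NK-like cells reaches below it.

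The spread over single cells differed between the classes. Cells were thinned to 1500 UMIs each, so that depth was the same in all, and the UMIs of the 10 genes were added up per cell. In cDC1, the whole distribution was higher: the median cell had 2 UMIs in WT (433 cells) and 17 in cit (517 cells), and the 10th percentile was 0 in WT and 5 in cit. Of the cit cDC1, 87.8% were above the 90th percentile of WT cDC1, which was 6 UMIs, compared with 8.78% of WT cDC1 themselves. The 10% of cells with the most held 35.5% of these UMIs in WT and 21.9% in cit. At equal relative spread that share falls as the mean count rises, and the mean was 2.89 UMIs in WT and 18.3 UMIs in cit. The variance over the mean, which is close to 1 for counting error alone, was 3.76 in WT and 6.01 in cit. At the same relative spread it rises with the mean, so these 2 values do not show which library was more variable. The standard deviation was 3.30 UMIs in WT and 10.5 UMIs in cit.

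In cDC2, the upper part of the distribution moved furthest. The median was 1 UMI in WT (2997 cells) and 2 UMIs in cit (5751 cells), while the 90th percentile was 3 and 11 UMIs. Above the WT 90th percentile were 35.5% of cit and 8.27% of WT cDC2. No UMI of any of the 10 genes was left in 31.7% of WT and 14.7% of cit cDC2. The variance over the mean of the sum was 1.62 in WT and 5.27 in cit, at means of 1.39 and 3.94 UMIs. Here too it rises with the mean at the same relative spread.

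In mature DC, the median was 1 UMI in both libraries (1575 WT and 938 cit cells) and the 90th percentile was 3 and 5. The 10% of cells with the most held 31.9% of the UMIs of the 10 genes in WT and 47.7% in cit. Before thinning, the median mature DC had 5 such UMIs in WT and 4 in cit, at median depths of 6892 and 5210 UMIs. A minority of cit cells therefore carried much of the difference in the class sum, but not all of it. After thinning, 42.1% of cit and 31.2% of WT mature DC lay above the WT median. Without the 5% of cells with the highest share in each library, the log2 ratio of the sum was 0.71. Then 4 genes were higher, beside 4.71% of all genes. Without the cells of the highest Scrublet doublet scores, the log2 ratio was 0.88. A set of 7 cit mature DC also passed the cDC1 gate. These 7 of 950 cells held 11.9% of the UMIs of the 10 genes in their class, at 9547 CPM. The 36 of 1589 WT mature DC that passed it held 7.48%. Mature DC without cDC1 genes had a log2 ratio of 1.09 (1.05 to 1.14).

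In pDC, the distributions lay close together, with medians of 3 UMIs in WT and 4 in cit, and 14.3% of the 91 cit cells were above the 90th percentile of WT, compared with 10.6% of the 85 WT cells. Cycling cells had medians of 2 and 3 UMIs, and 90th percentiles of 6 and 15 UMIs. Among them, cells that also had cDC1 genes (81 WT and 89 cit) went from 3323 to 9890 CPM (log2 ratio 1.57), and those without went from 1224 to 2681 CPM (1.13). NK-like cells had a median of 2 UMIs in both libraries.

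**Figure D4:**
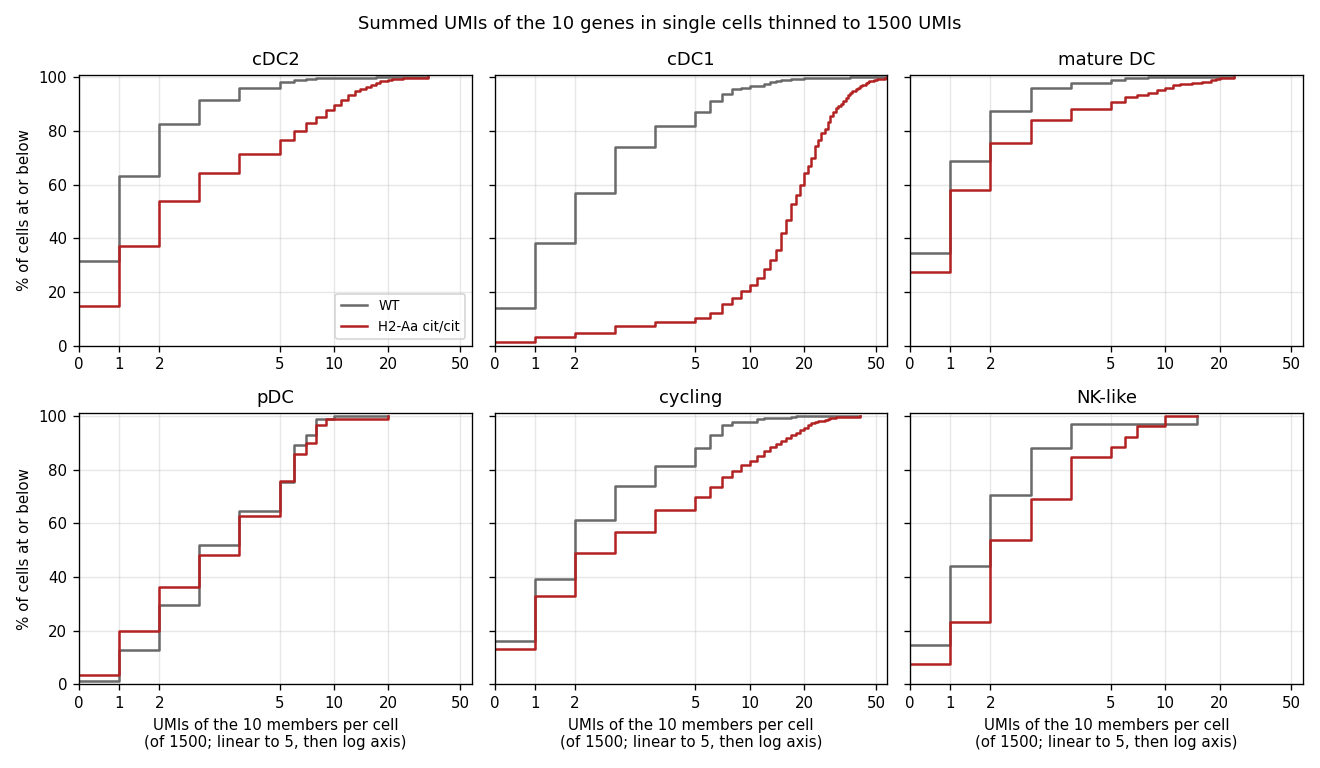
Cumulative share of cells (y axis, %) by the UMIs of the 10 genes per cell after thinning to 1500 UMIs (x axis, linear to 5 UMIs and logarithmic above), in grey for WT and red for cit. The cDC1 curves are apart along their whole length, with medians of 2 and 17 UMIs. The mature DC curves lie closer, with 90th percentiles of 3 and 5 UMIs, and the pDC curves lie together.

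Gene by gene, Hspa5 was found in 24.3% (interval 22.7 to 25.8) of WT and 48.3% (47.0 to 49.6) of cit cDC2 at 1500 UMIs per cell, and in 57.4% and 76.2% without thinning. In cDC1 it was found in 41.6% (36.9 to 46.4) of WT and 93.0% (90.5 to 95.1) of cit cells. The largest step in cDC1 was that of Manf, from 16.4% to 79.9%. Creld2, from few UMIs, was found in 5.08% (3.21 to 7.59) of WT and 44.9% (40.5 to 49.3) of cit cDC1. In mature DC, Hspa5 was found in 17.5% of WT and 27.4% of cit cells, and without thinning in 54.5% and 55.8%. These genes are used by every cell, so that no class can serve as a measure of free RNA. Marker lists of other lineages did not all differ in the same direction between WT and cit cDC2. The neutrophil list, of which DC are known to make little, gave 3.0 CPM (WT) and 10.6 CPM (cit). For the erythroid list these sums were 2.2 and 2.6 CPM, and for the macrophage list 6.8 and 3.6 CPM. Cells with at least 2 markers of any of these lists had been set apart as another lineage. Low sums in cDC2 are therefore partly built in. The part of free RNA in the values of the 10 genes was not tested.

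The cDC2 were also split by genes of the Ccr2+ and Ffar2-high cDC2 that the study compared between genotypes, and by a low ribosomal share. The clusters of the study were not used, and its Wdfy4-high cDC2 were not gated by Wdfy4. Among cells at or above 8% ribosomal UMIs, the first subset needed UMIs of at least 2 of Ccr2, Mgl2, Cd209a and Clec10a. The second was taken from the rest, with at least 2 of Ffar2, Esam, Clec4a4, Cd4 and Dtx1. A cell could thus be in a subset without a UMI of the genes that name it. Cells with Ccr2 and Mgl2 genes (225 WT and 668 cit cells) went from 1340 to 3356 CPM, with 9 of 10 genes higher, all but Canx (0.40), against a background of 2.57% higher. Cells with Ffar2 and Esam genes (1346 and 3057) went from 1079 to 2815 CPM, with all 10 higher against 1.70%. Cells with under 8% ribosomal protein UMIs (1211 and 1294) had the lowest levels, 657 and 1617 CPM, and the 9 genes tested were higher against 3.13%. Some of these genes were under 20 CPM in WT and were tested only through their level in cit. They were Hyou1 in all of these subsets, and Creld2 in the subsets with Ccr2 and Mgl2 or Ffar2 and Esam genes. The log2 ratios of the sum, 1.32 (1.27 to 1.38), 1.38 (1.35 to 1.41) and 1.30 (1.23 to 1.37), had overlapping intervals. The remaining cells, with neither set of genes (289 and 919), went from 1088 to 3626 CPM, a log2 ratio of 1.74 with an interval, from 1.67 upward, above those of the other 3. The share of cells under 8% ribosomal protein UMIs was larger in WT than in cit. Within cells at or above 8%, the log2 ratio was 1.45 in cDC2, 2.61 in cDC1 and 1.34 in mature DC, while mature DC under 8% had 0.43 (0.34 to 0.51).

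Around the 10 genes, other steps of the pathway were read from lists. Of all genes tested, 1.83% were higher and 2.22% lower in cDC2, and 9.22% and 7.91% in cDC1. These shares stand beside the counts of every list below. Of 13 protein disulfide isomerases and oxidoreductases tested in cDC2, which form disulfide bonds, 5 were higher and 0 lower (median log2 ratio 0.41), and 9 of 13 were higher in cDC1. Pdia4 (1.83) and Pdia6 (1.70) led in cDC2, and Tmx3 was lowest (−0.13). Of 15 other folding genes, 4 were higher in cDC2, with Fkbp2, a prolyl isomerase, at 1.34 and the BiP cofactor Dnajb9 at 0.91, whereas Dnajc10 was at −0.15. In cDC1, 10 of 16 were higher, and 2 of these were under 20 CPM in WT and passed the minimum only through cit. Of 16 genes of stress sensing and ER-associated degradation, 5 were higher in cDC2 (median 0.31) and 14 of 18 in cDC1 (median 0.95). These included Edem1 (0.83 in cDC2), which sends misfolded glycoproteins to degradation, and Xbp1 itself (0.75), while the ubiquitin-conjugating enzyme Ube2j1 was at −0.08. Of the 14 higher in cDC1, 2 were under 20 CPM in WT and passed the minimum only through cit.

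Targets of ATF4 and CHOP, the transcription factors below PERK, passed the minimum in 5 cases in cDC2. Of these, 3 were higher, with Ddit3, which encodes CHOP, at 1.94 and Ddit4 at 1.03, and Ppp1r15a was at −0.28. Ddit3 was at 13.1 CPM in WT cDC2 and passed the minimum only through cit. In cDC1, 9 of the 10 tested were higher, but 8 of these were under 20 CPM in WT and passed the minimum only through cit. With a minimum of 50 CPM, 5 genes were tested in cDC1 and 5 were higher, beside 8.93% of all genes. That minimum is also a mean over both libraries, so it does not remove genes that enter through cit. Of 16 cytosolic chaperone genes tested, 0 were higher or lower in cDC2 and 0 in cDC1, with medians of 0.11 and 0.08. The extremes in cDC2 were Dnaja1 (0.31), Cct5 (0.28) and Hspa4 (−0.12). Of 6 mitochondrial chaperones, 0 were higher in cDC2 and 3 in cDC1, where 9.22% of all genes were. In cDC2, Hspa9, the mitochondrial HSP70, was at 0.41, Hspe1 at 0.27 and Trap1 at −0.04.

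Immediate-early genes, which respond to handling of cells, were 0 higher and 3 lower of 11 in cDC2, with Egr1 at −1.65, Atf3 at 0.06 and Fosb at 0.04. Plasma cells are rich in ER chaperones. In cDC2, 10 of their markers summed to 26.4 CPM (WT) and 17.5 CPM (cit), and in cDC1 to 11.1 and 10.8 CPM. Cells with at least 3 of these 10 markers had been set apart as another lineage. Low sums and few such cells in cDC2 and cDC1 are therefore partly built in. None of these markers passed the minimum in cDC2, where Ighm, the other gene of the list, was at 0.12. Jchain was under 1 CPM in cDC2 and cDC1 of both libraries. In both libraries as a whole, 19 WT and 14 cit cells had UMIs of at least 2 of Jchain, Sdc1, Tnfrsf17, Mzb1 and Eaf2. Only 2 WT and 3 cit of these were in cDC2, and 0 in cDC1. Leaving them out could therefore change little in cDC2 and nothing in cDC1, and the log2 ratios of the sum stayed at 1.51 and 2.62.

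Over the 12 combinations of class and library, the 10 genes outside the set whose level followed the mean of the set most closely, by Pearson's r of log2(CPM + 1), were Pdia6 (0.985), Pdia3 (0.962), Pdia4 (0.952), Mydgf (0.948), Ostc (0.947), Hdlbp (0.944), P4hb (0.942), Ppib (0.930), Slc35b1 (0.929) and Ormdl2 (0.928). These were taken from 6839 genes, and the 12 points share libraries and cell depths. Among the 10 genes themselves, r with their mean was highest for Hspa5 (0.994) and lowest for Sdf2l1 (0.903). Each of the 10 is part of that mean, which raises its r, so these values do not compare with those of the genes outside the set.

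The ERSE and ERSE-II windows led to 42 further genes with a match, of which 38 are in the files and few are expressed. Of the 8 tested in cDC2, 4 were higher and 0 lower, with a median of 0.46, beside 1.83% of all genes higher. The 4 were Pdia6 (1.70), Krtcap2 (1.31), a subunit of the oligosaccharyltransferase, Nucb1 (0.97) and the ER stress gene Herpud1 (0.67). In cDC1, 6 of 9 were higher, beside 9.22% of all genes. Of the 6, Derl3 and Syvn1 were under 20 CPM in WT and passed the minimum only through cit. Derl3, which takes part in ER-associated degradation, had 6 UMIs in WT and 1065 UMIs in cit cDC1. Pdia6, Herpud1, Derl3 and Syvn1 are also genes of the lists above, so these counts are not separate from those. Not every gene with a match was higher, since Rbm39 was at −0.19 and Pan2 at −0.36 in cDC2. In pDC, 0 of 7 were higher or lower.

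**Figure D5:**
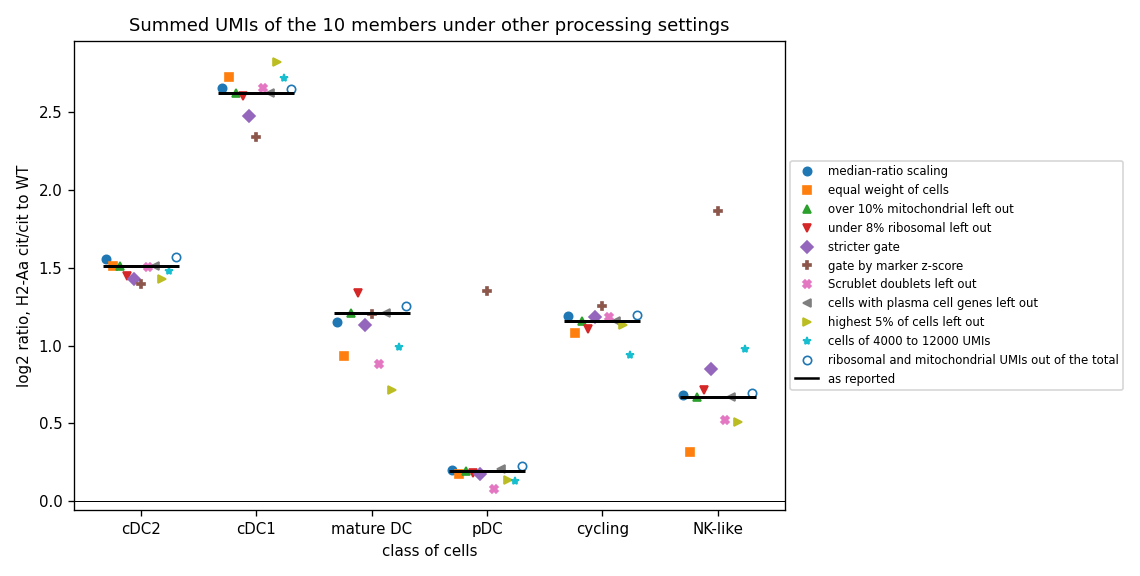
Log2 ratio of cit to WT for the UMIs of the 10 genes together, as reported (black bars) and under 11 other processing settings (symbols), in each class. The values stay between 1.39 and 1.57 in cDC2 and between 2.34 and 2.82 in cDC1, and spread from 0.71 to 1.34 in mature DC. In pDC and NK-like cells the highest values are those of the z-score assignment, which enlarged both classes with cells outside their marker limits.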

How the data were processed

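The authors sequenced 1 droplet library of 3′ transcripts (10X Genomics) per genotype. The deposited files give raw UMI counts for every gene in every called cell, made by the authors with Cell Ranger 5.0.1 against mm10 (GRCm38) according to the submitters' processing notes, which also name Seurat. The gene annotation and the use of intronic reads are not given in the sources used here.

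All cells were kept. Each cell was counted for markers with at least 1 UMI. Cells were assigned in this order: NK-like (at least 3 of 7 markers), any of 7 other lineages, pDC (4 of 6), cycling (3 of 8), mature DC (4 of 7), cDC1 (3 of 6) and cDC2 (2 of 9), and 1756 WT and 2798 cit cells passed none. These limits were set from the marker distributions, without the 10 genes. At the limit of their class lay 1286 of 3071 WT and 2534 of 5938 cit cDC2. UMIs were summed per class and scaled to the class total (CPM). Intervals are exact Poisson for CPM, conditional binomial for ratios and Clopper-Pearson for shares of cells. They cover counting error only. For single cells, UMIs were drawn without replacement until each cell had 1500, which excluded shallower cells (74 WT and 187 cit cDC2, and at most 22 in any other class and library).

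The text names the 10 genes; of each list, the 2 highest and the 1 lowest log2 ratio in cDC2 among genes of at least 20 CPM; the 10 genes of most like pattern; H2-Aa; and gate markers. Genes with a promoter match were named after their values were seen. The 10 genes and the lists were chosen with earlier results of these data known. Mesdc2 and Vimp of the lists are not among the symbols of the files. Doublets were kept, and left out in an alternative (488 WT and 1063 cit cells by Scrublet score). Restricting cells to 4000 to 12000 UMIs and taking ribosomal and mitochondrial UMIs out of the total were alternatives chosen after seeing the data. The ratio and its interval were tested on simulated class sums drawn with Poisson error. That is the error the interval assumes, so the simulation does not cover spread over cells or mice. Python 3.11.15, numpy 2.4.6, scipy 1.17.1, pandas 2.3.3, scanpy 1.11.5 and matplotlib 3.10.9 were used. Promoters are RefSeq sequences of GRCm38.p6.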

Additional observations from a re-analysis of the deposited data

Results flagged for a closer look

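Cells outside the 6 classes were not used in the comparisons, and the UMIs of the 10 genes together were higher in cit there too. Cells that passed no marker limit (1756 WT and 2798 cit cells, with median depths of 2272.5 and 2365.5 UMIs) had 934 CPM in WT and 3519 CPM in cit, a log2 ratio of 1.91. Cells with markers of another lineage (470 and 491) had 1447 and 4221 CPM, a log2 ratio of 1.54. By the list that set them apart, the log2 ratio was 1.58 in cells with monocyte genes (166 and 260 cells), 1.13 in those with macrophage genes (203 and 108) and 0.91 in those with B cell genes (55 and 67). Cells with plasma cell genes were few (26 and 11), at 2043 and 6911 CPM (1.76). The log2 ratio was 2.65 in cells with erythroid genes (24 and 19), 2.37 in those with neutrophil genes (13 and 42) and 1.49 in those with T cell genes (2 and 3). Cells can carry the genes of several lists, and which of them are DC or doublets with DC was not tested.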

How the results depend on the processing

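The log2 ratio of the 10 genes together stayed above 0 in every class under each of the 11 alternatives, between 1.39 and 1.57 in cDC2 and between 2.34 and 2.82 in cDC1, where all 10 genes stayed higher under each of them. Under these 11 alternatives, 6.85% to 17.8% of all genes were higher in cDC1. Only a minimum of 50 CPM or a 2-fold limit lowered the count in cDC2, each to 8, and neither lowered that in cDC1. Beside these counts, 1.90% (50 CPM) and 0.466% (2-fold) of all genes were higher in cDC2, and 8.93% and 3.83% in cDC1. In mature DC the log2 ratio of the sum was 0.71 to 1.34. The other values outside the counting interval follow, and the cause was not tested. Median-ratio scaling gave 1.56 in cDC2, 2.66 in cDC1 and 1.15 in mature DC. It put 1 cytosolic chaperone as higher in cDC1, beside 10.2% of all genes. Equal weight of cells gave 2.73 in cDC1, 0.93 in mature DC, 1.08 in cycling cells and 0.32 in NK-like cells. In the last, 3 genes were higher and 1 lower, where 24.2% of all genes were higher and 1609 of 6748 lower. Without cells under 8% ribosomal UMIs, the values were 1.45 in cDC2, 1.34 in mature DC and 1.11 in cycling cells. Then 1 gene was higher in pDC, beside 7.17% of all genes. In NK-like cells 6 were higher and 1 lower, where 22.6% of all genes were higher and 1456 of 6808 lower. A gate with 1 more marker gave 1.43 in cDC2, 2.48 in cDC1 and 1.13 in mature DC. With it, 1 gene was higher in pDC, beside 7.89% of all genes. Assignment by the highest marker z-score left no cell without a class. It enlarged pDC to 644 WT and 869 cit and NK-like cells to 619 and 1346 cells. By the marker limits there were 85 and 91 pDC and 34 and 30 NK-like cells. It gave 1.39 in cDC2, 2.34 in cDC1, 1.26 in cycling cells, 1.35 in pDC and 1.86 in NK-like cells. In both of the last, 10 genes were higher, beside 1.70% (pDC) and 3.89% (NK-like) of all genes. The values of these enlarged classes are not those of the gated pDC and NK-like cells. Hyou1 in the NK-like cells of this assignment reversed, from −0.75 to 2.13. Without Scrublet doublets, the values were 2.66 in cDC1, 0.88 in mature DC and 0.078 in pDC, with 1 gene higher in pDC (8.33% of all genes). Without the highest 5% of cells, the values were 1.43 in cDC2, 2.82 in cDC1 and 0.71 in mature DC. Then 4 genes were higher in mature DC (4.71% of all genes) and 1 in pDC (7.34%). In cells of 4000 to 12000 UMIs, the values were 1.48 in cDC2, 2.72 in cDC1, 0.99 in mature DC, 0.94 in cycling and 0.98 in NK-like cells. In pDC 1 gene was higher and 1 lower, where 9.96% of all genes were higher and 557 of 6454 lower. With ribosomal and mitochondrial UMIs out of the total, the values were 1.57, 2.65, 1.25 and 1.20 in cDC2, cDC1, mature DC and cycling cells. A minimum of 50 CPM left 1 gene higher in pDC (3.17% of all genes). It left 2 other folding genes in cDC2 (1.90%), and 6 of these and 5 ATF4 and CHOP genes in cDC1 (8.93%). A 2-fold limit left 0 genes in pDC (1.33% of all genes) and 2 in NK-like cells (10.4%). Thinning to 1000 UMIs put 33.8% of cit cDC2 and 31.1% of cit cycling cells above the WT 90th percentile, and thinning to 4000 UMIs 40.8% of cDC2, 21.8% of mature DC and 33.8% of cycling cells. Of the single genes, 523 of 659 values stayed within their interval.

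With 1 library per genotype, differences between the 3 pooled mice or between the preparations cannot be told apart from genotype. Ribosomal share and the depth of cDC1, mature DC and pDC also differed between the libraries. In pDC and NK-like cells, few cells limit what can be seen. No paired analysis was possible because each genotype has 1 library.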

Other observations

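Pairs of the 10 genes varied together over single cells more in cit than in WT. In cells thinned to 4000 UMIs, the median Pearson's r over the 45 pairs was 0.08 in WT and 0.38 in cit cDC2 (2048 and 4461 cells), 0.04 and 0.35 in mature DC (1362 and 737), 0.21 and 0.41 in cycling cells (304 and 585), and 0.26 and 0.35 in cDC1 (383 and 490). In cit, the closest pair was Hspa5 with Hsp90b1 in cDC2 (0.67), cDC1 (0.71) and mature DC (0.72), and Hspa5 with Manf in cycling cells (0.77). In pDC the medians were 0.02 and 0.07 from 81 cells in each library. These are correlations over cells of 1 library each and they are lower where counts are lower, so a difference between the libraries also holds the difference in level.

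The make-up of the set also differed by class. In WT, Hsp90b1 took 9.7% of the UMIs of the 10 genes in mature DC, 14.1% in cDC2, 20.2% in cDC1 and 32.5% in pDC, and Calr took 28.6% in mature DC and 11.2% in pDC. In cit, Hspa5 took 26.0% to 28.7% in mature DC, cycling cells, cDC2 and cDC1, and 21.1% in pDC, where Hsp90b1 stayed ahead with 26.0%.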
